A study of Homo sapiens with 24 samples.

Results

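The response of SNU-449 cells to TGFβ1 alone was read from 6 of the 24 arrays of the series, the 3 titled as SNU-449 with TGFb and the 3 titled as SNU-449 control, so that the arrays were chosen by label and not by any measured value. SNU-449 is an established cell line from a human hepatocellular carcinoma (HCC). The treated cultures received recombinant human TGFβ1 at 1 ng/mL for 16 h, the controls received no agent, and all cultures, controls included, had been serum-starved overnight. The series also holds SNU-449 cultures with galunisertib (LY2157299, 10 µM), an inhibitor of the kinase of the type I TGFβ receptor, alone or together with TGFβ1, and the same 4 groups of PLC/PRF/5, another established HCC line. Each group comprised 3 independent cultures, 1 array each. The question for the 6 arrays was which genes move in SNU-449 when TGFβ1 is the only addition, and the arrays with galunisertib and those of PLC/PRF/5 served to show where that response differed.

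TGFβ binds a pair of serine/threonine kinase receptors, the type II receptor activates the type I receptor, and the latter phosphorylates SMAD2 and SMAD3, which enter the nucleus with SMAD4 and bind DNA together with other factors. Among the genes switched on are inhibitors of the pathway itself, matrix proteins, and the transcription factors of epithelial-to-mesenchymal transition (EMT), in which cells give up E-cadherin junctions and gain motility. In the liver the pathway is known for restraining hepatocyte growth, for fibrosis, and in late tumors for invasion.

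The measurement was the fluorescence of 62976 spots on a one-colour Agilent array, and every level below is the log2 of a spot's processed intensity relative to the 75th percentile of its own array, so that a level of 0 equals that percentile and levels of different genes are not comparable. Signals under a common floor, at a log2 of -4.13, were set to it. The 75th percentile lay between 199 and 247 intensity units on the control arrays and between 227 and 262 on the TGFβ arrays. Spots well above background made up 42.7 to 46.7% of the control arrays and 45.0 to 45.8% of the TGFβ arrays, and 0 spots were saturated. On each of the 3 slides the control array lay in the first row and the TGFβ array in the second, so position on the slide and treatment cannot be told apart. The same layout held with galunisertib and in PLC/PRF/5, where every array with TGFβ lay in the second row and every array without it in the first. Markers of the labelled cell type were mixed: among secreted hepatocyte proteins TTR, SERPINA1 and APOA1 were measurable whereas ALB and APOB did not pass the filter on dim probes, the mesenchymal genes VIM, FN1 and CDH2 were measurable, and the epithelial genes EPCAM and KRT19 did not pass. As these are bulk RNA samples, fewer cells of a type and less RNA per cell cannot be told apart.

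TGFβ1 changed a small part of the transcriptome, and more genes rose than fell. Of 16101 genes tested, 375 (2.33%) differed by more than 2-fold with an unadjusted P below 0.001 in limma, which is the rule meant by "called" below; 233 were higher with TGFβ (1.45%) and 142 were lower (0.882%). About 16.1 genes would pass that P threshold by chance. With a Benjamini-Hochberg adjusted p below 0.05 and no fold limit, 1688 genes differed (10.5%), 923 being higher (5.73%) and 765 lower (4.75%). The median difference of the called genes was 1.41 for those that rose and -1.30 for those that fell, against 0.02 over all genes, and 40 rises but 7 falls exceeded 4-fold. All 375 called genes kept the same sign on each of the 3 slides and had groups that did not overlap, a property that 38.7% of all tested genes share. The balance between rises and falls depended on the scaling, since without scaling between arrays 327 genes rose and 100 fell, with all genes shifted up by 0.15, and with normexp background correction 174 rose and 46 fell.

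**Figure D1:**
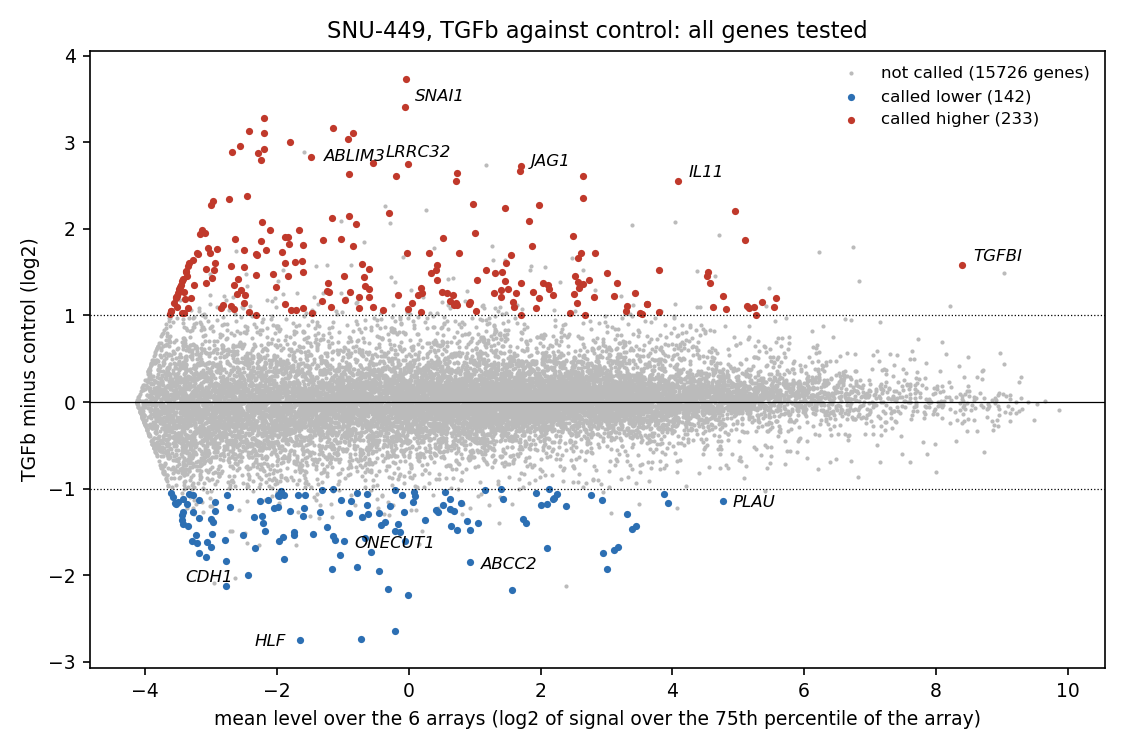
Difference of log2 level (TGFβ minus control in SNU-449, vertical axis) against the mean log2 level over the 6 arrays (horizontal axis) for all 16101 genes tested, with genes called higher in red, called lower in blue and a 2-fold difference as dotted lines. The 233 rises reach beyond 3 and the 142 falls end near -2.74, and calls of both directions lie mostly at low and middle levels.

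Among the largest rises was that of SNAI1, the gene of Snail, a zinc-finger repressor of E-cadherin. Its levels were -1.63, -1.85 and -1.81 in the 3 control cultures and 1.59, 1.66 and 1.67 in the 3 TGFβ cultures. The groups lay far apart compared with the spread within each (-1.76 ± 0.12 against 1.64 ± 0.04, SD, n = 3), a 10.6-fold rise with a log2 difference of 3.40 (SE 0.12, limma adjusted p = 1.9e-07). ABLIM3, an actin-binding LIM protein, stood at -3.30, -2.74 and -2.65 in the controls and at -0.06, -0.16 and 0.00 with TGFβ. All 3 treated cultures were above all controls, and the rise was 7.09-fold (log2 2.83, SE 0.19, limma adjusted p = 1.3e-05).

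Among the genes that fell, HLF showed the largest drop. HLF encodes a transcription factor of the PAR bZIP family, which drives daily rhythms of liver detoxification genes. It stood at -0.50, -0.25 and -0.07 in the controls and at -3.09, -3.12 and -2.84 with TGFβ. The groups did not overlap, and the drop was 6.70-fold (log2 -2.74, SE 0.19, limma adjusted p = 1.4e-05). ABCC2, which encodes MRP2, the exporter of conjugated bilirubin and drugs on the canalicular membrane of hepatocytes, stood at 1.77, 1.96 and 1.85 in the controls and at 0.14, -0.04 and -0.08 with TGFβ. All treated cultures lay below the controls, by 3.60-fold (log2 -1.85, SE 0.11, limma adjusted p = 7.1e-06).

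CDH1, the gene of E-cadherin, was low in SNU-449 before treatment and lower after it. Its levels were -1.98, -1.06 and -1.29 in the controls and -3.47, -3.52 and -3.33 with TGFβ. The groups did not overlap, but the control cultures were spread over nearly 1 log2 unit, and the difference of -2.0 (SE 0.25, 4.0-fold, limma adjusted p = 0.00067) was no longer called without the third replicates (-1.98), with normexp background correction (-0.87) or by the methods' t-test. Its spot lies in the outer rows or columns of the array, and the part of this position in the result was not tested.

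**Figure D2:**
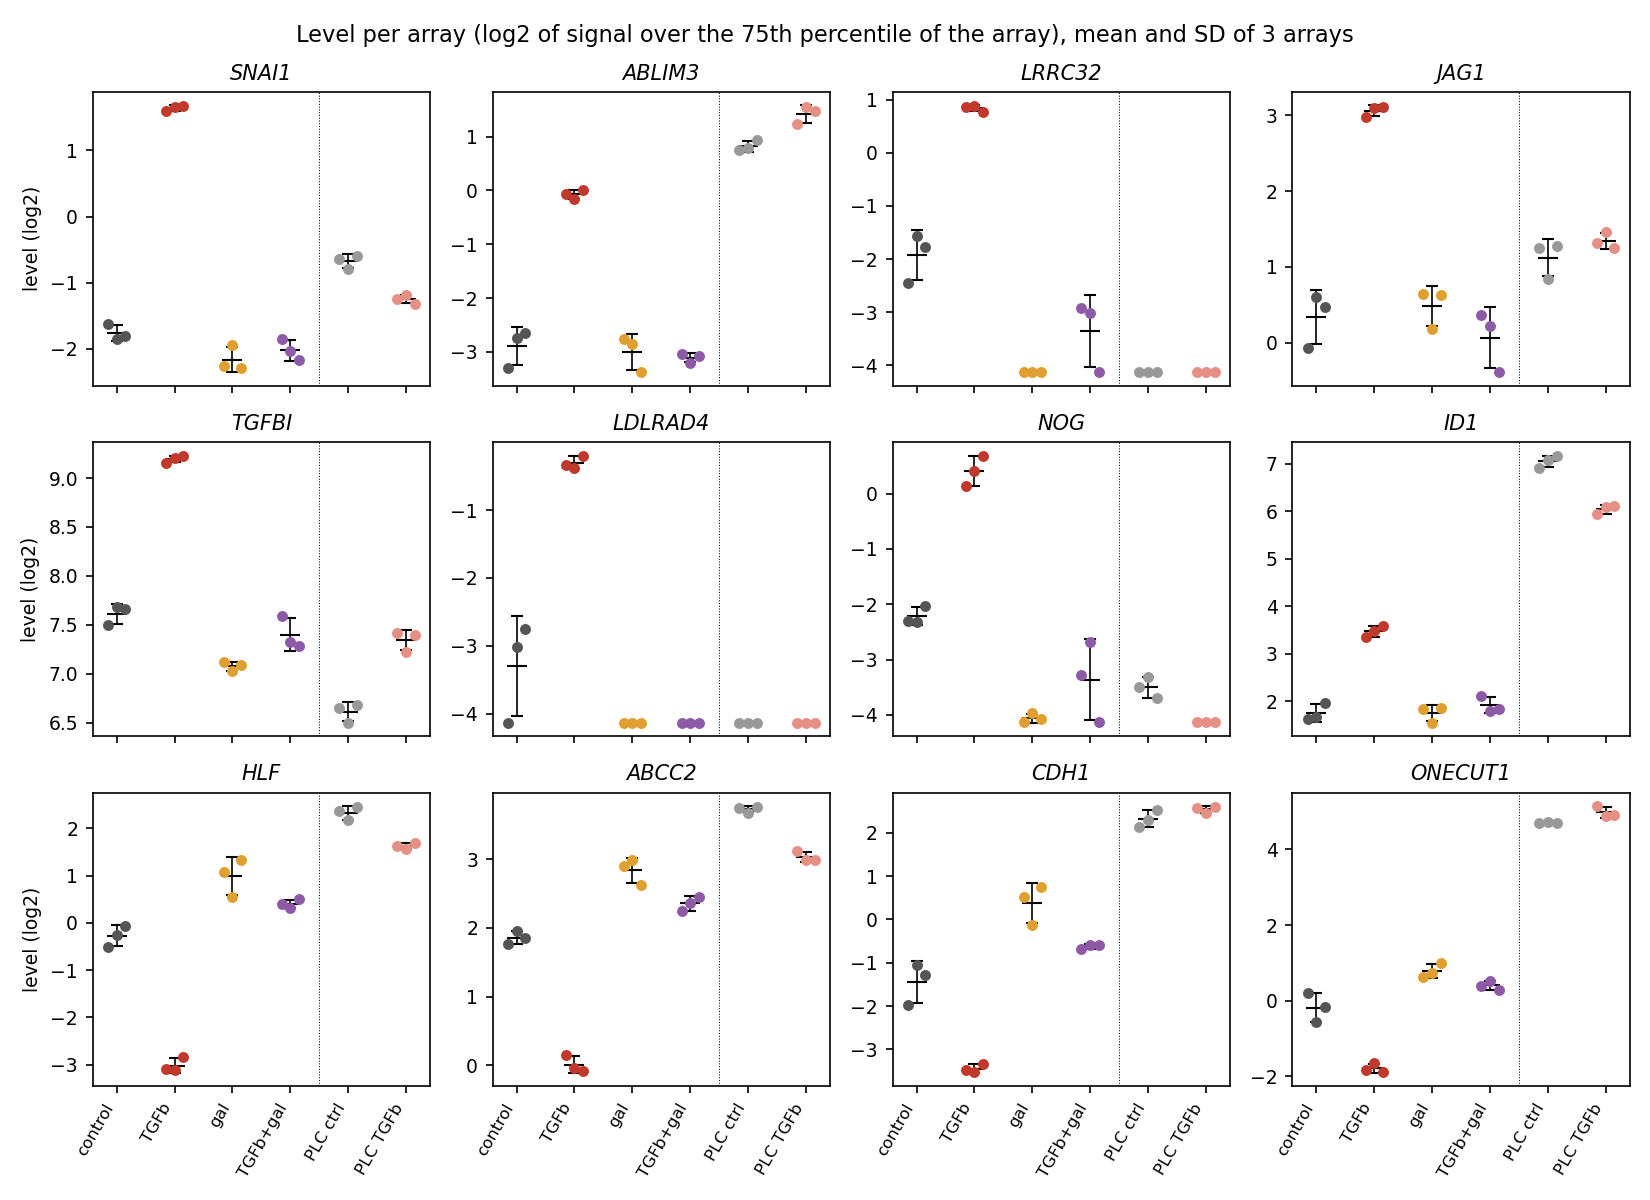
Log2 level relative to the 75th percentile of the array (vertical axis, own scale in each panel) of 12 named genes in each culture of the 4 SNU-449 groups and of control and TGFβ PLC/PRF/5 cells, with points as arrays and bars as mean and SD (n = 3). In every panel the 3 SNU-449 TGFβ cultures lie on one side of the 3 controls, above them in the first 8 panels and below them for HLF, ABCC2, CDH1 and ONECUT1.

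Promoter sequence is shown for 3 genes that rose (ABLIM3, ALOX5AP and IL11) and 3 that fell (HLF, EREG and ABCC2), to set the sequence next to their start sites beside the direction of their change. Each is the 250 bases before the first listed RefSeq transcription start on GRCh38.p14, written 5′ to 3′ on the strand of the gene. Capitals mark CAGAC or GTCTG, the motif of SMAD proteins, CAGGTG or CACCTG, the E-box bound by Snail proteins, and TGANTCA, the motif of AP-1. The windows are chr5:149141243-149141492 (ABLIM3, plus strand), chr13:30713235-30713484 (ALOX5AP, plus), chr19:55370464-55370713 (IL11, minus), chr17:55264710-55264959 (HLF, plus), chr4:74364895-74365144 (EREG, plus) and chr10:99782390-99782639 (ABCC2, plus).
ABLIM3: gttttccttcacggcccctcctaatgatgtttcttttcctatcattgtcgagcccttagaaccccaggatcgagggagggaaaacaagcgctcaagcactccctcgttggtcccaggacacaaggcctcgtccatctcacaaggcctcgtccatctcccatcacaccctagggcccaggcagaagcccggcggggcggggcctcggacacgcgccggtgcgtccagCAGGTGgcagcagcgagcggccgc
ALOX5AP: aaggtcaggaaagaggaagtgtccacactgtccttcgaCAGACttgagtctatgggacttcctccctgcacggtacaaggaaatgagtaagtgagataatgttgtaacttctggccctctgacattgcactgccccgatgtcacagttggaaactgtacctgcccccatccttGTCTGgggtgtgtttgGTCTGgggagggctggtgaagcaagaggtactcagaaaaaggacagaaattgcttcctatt
IL11: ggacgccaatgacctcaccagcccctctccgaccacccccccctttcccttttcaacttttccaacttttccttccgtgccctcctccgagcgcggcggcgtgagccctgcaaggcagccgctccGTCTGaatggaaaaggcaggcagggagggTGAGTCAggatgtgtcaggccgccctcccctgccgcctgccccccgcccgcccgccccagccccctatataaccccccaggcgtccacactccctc
HLF: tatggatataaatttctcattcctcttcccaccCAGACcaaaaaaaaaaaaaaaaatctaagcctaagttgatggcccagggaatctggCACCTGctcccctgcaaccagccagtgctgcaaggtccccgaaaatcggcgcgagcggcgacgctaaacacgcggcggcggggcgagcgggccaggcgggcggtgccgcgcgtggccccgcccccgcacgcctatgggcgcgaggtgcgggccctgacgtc
EREG: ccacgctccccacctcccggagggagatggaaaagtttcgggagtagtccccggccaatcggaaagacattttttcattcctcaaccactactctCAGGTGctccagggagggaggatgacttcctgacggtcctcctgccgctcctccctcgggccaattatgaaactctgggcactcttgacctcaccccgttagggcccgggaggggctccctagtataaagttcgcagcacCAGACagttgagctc
ABCC2: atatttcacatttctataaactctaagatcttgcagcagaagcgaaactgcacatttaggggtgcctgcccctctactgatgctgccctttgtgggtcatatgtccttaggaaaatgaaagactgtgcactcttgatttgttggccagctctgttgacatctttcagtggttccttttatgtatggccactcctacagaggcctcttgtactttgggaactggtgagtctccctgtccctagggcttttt
The window of ALOX5AP holds 3 SMAD motifs, that of IL11 1 SMAD and 1 AP-1 motif, and that of ABLIM3 1 E-box. Among the genes that fell, HLF and EREG each hold 1 SMAD motif and 1 E-box, and in the window of ABCC2 none of these letters was found.

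The share of starts with each motif was counted over whole sets of genes, on both strands, without a test. The SMAD motif occurred before 37.8% of 267 starts of genes called higher and 39.2% of 143 starts of genes called lower, against 36.6% of 15998 starts of all tested genes and 38.0% of 35116 starts in the whole table. The E-box occurred before 18.4% and 17.5%, against 16.1% of the starts of tested genes. The AP-1 motif occurred before 8.99% of the starts of genes called higher and 8.39% of those called lower, against 4.59% for tested genes and 6.57% for the whole table. Median GC content was 63.6% before genes called higher, 57.6% before genes called lower and 64.0% before all tested genes, and its part in these shares was not tested. RefSeq starts were at hand for 166 of 222 genes called higher and 91 of 131 called lower that carry a RefSeq name. A match is a run of letters and not a binding site.

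Among ligand and latency genes the calls were those of LRRC32 and LTBP2, both rises. Of 9 tested, 2 were called higher and 0 lower, and 5 rose by adjusted p, with a median difference of 0.60. LRRC32, encoding GARP, which holds latent TGFβ at the cell surface, stood at -2.45, -1.56 and -1.77 in the controls and at 0.86, 0.88 and 0.77 with TGFβ. The treated cultures were all higher, by 6.78-fold (log2 2.76, SE 0.30). LTBP2, a matrix protein of the family named latent TGFβ binding proteins, rose from 2.26 ± 0.16 to 3.75 ± 0.07 (SD, n = 3), a log2 difference of 1.49. Its relatives LTBP3 and LTBP4 rose by 0.78 and 0.37 with limma adjusted p of 0.0004 and 0.015, short of 2-fold. TGFB1, the ligand itself, named outside the rule for naming genes given with the methods, stood at 1.61 ± 0.02 and 2.99 ± 0.02 (SD, n = 3) on a spot near the array edge, a difference of 1.38 that passed the adjusted threshold but not the call. A limma fit of the 6 arrays alone (unadjusted P of 4.6e-07), the methods' t-test and normexp background correction (a difference of 1.71) each called TGFB1.

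Of 8 receptor genes 1 was called, the type II BMP receptor BMPR2, with a log2 difference of 1.24, while 3 rose and 1 fell by adjusted p and the median of the list was 0.71. The pair of TGFβ receptors went in opposite directions, TGFBR1 rising by 0.63 (limma adjusted p = 0.011) and TGFBR2 falling by 0.72 (adjusted p = 0.0163), and the activin receptor ACVR2B rose by 0.80 (adjusted p = 0.0441). Of the 5 signalling SMADs tested 0 passed either threshold, and the median was 0.16; the lowest P was that of SMAD3, with a difference of 0.28 and a limma adjusted p of 0.0593.

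Of 13 feedback inhibitors, 1 was called higher and 0 lower, 8 rose and 1 fell by adjusted p, and the median was 0.65. LDLRAD4, a membrane protein that restrains SMAD2 and SMAD3 activation, was at the floor or near it in the controls (-4.13, -3.02 and -2.75) and reached -0.33, -0.38 and -0.20 with TGFβ. That 7.98-fold rise (limma adjusted p = 9.6e-05) was the only one of the list to be called. BAMBI, a decoy receptor, rose by 0.97, the SMAD corepressor SKI by 0.95, the inhibitory SMADs SMAD7 and SMAD6 by 0.65 and 0.47, the ubiquitin ligase SMURF1 by 0.65 and the corepressor TGIF1 by 0.46 (0.04 with probes away from the array edge), whereas the ligase NEDD4L fell by 0.40. PMEPA1, a membrane protein that sequesters receptor SMADs, rose from 6.13 ± 0.07 to 7.52 ± 0.07 (SD, n = 3). Its difference of 1.39 had an SE of 0.37 with the error estimated over all 4 SNU-449 groups, and it passed the adjusted threshold in limma (adjusted p = 0.0388) but not the call. A limma fit of the 6 arrays alone called it, at an unadjusted P of 1.5e-06. SKIL, SMURF2, PPM1A and TGIF2 differed by 0.93, 0.50, 0.13 and 0.15 and did not pass.

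Most known direct targets of SMADs rose. Of 15 tested, 10 were called higher and 0 lower, 13 rose by adjusted p, and the median was 1.38. TGFBI, a secreted matrix protein, stood at 7.49, 7.68 and 7.66 in the controls and at 9.16, 9.21 and 9.22 with TGFβ. The rise was 2.99-fold (log2 1.58, SE 0.10, limma adjusted p = 6.9e-06), many times the spread within either group. IL11, a cytokine of the IL-6 family, rose from 2.69, 2.77 and 2.96 to 5.24, 5.32 and 5.50, with a log2 difference of 2.55 and a wide SE of 0.45, and lost its call without the second or the third replicates, without the first control or without the third TGFβ culture. ID1, an inhibitor of basic helix-loop-helix factors, rose by 1.72, CCN2, connective tissue growth factor, by 1.53, and GADD45B, a stress-response signalling protein, by 1.08. JUNB, a subunit of AP-1, rose by 1.54, PTHLH, the parathyroid hormone-related peptide, by 1.38, ANGPTL4, an inhibitor of lipoprotein lipase, by 1.38, and ID3 by 1.08, and each of these 4 lost its call without at least 1 replicate number. The repressor BHLHE40 rose by 0.87, HMOX1, heme oxygenase, by 0.70 and COL1A1, a chain of type I collagen, by 0.92 with adjusted p below the threshold, and KLF10 and ID2 differed by 0.78 and -0.59 without passing.

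Several other ligands of the TGFβ superfamily and their antagonists also changed. Of 14 tested, 6 were called higher and 1 lower, and the median was 0.93. INHBA, the subunit of activin A, stood at 0.91, 0.66 and 0.78 in the controls and at 2.84, 2.88 and 2.91 with TGFβ. The groups were separated by 4.26-fold (log2 2.09, SE 0.10, limma adjusted p = 1.9e-06). GDF6, a ligand of the BMP family, rose from -1.49 ± 0.29 to 1.12 ± 0.08 and NOG, the secreted BMP antagonist noggin, from -2.22 ± 0.16 to 0.41 ± 0.27 (SD, n = 3), by 6.11-fold and 6.18-fold. FST, encoding the activin antagonist follistatin, was not well above background in any control and rose 2.02-fold over the floor, or at least 1.92-fold, a call lost without the third replicates or the third TGFβ culture. BMP4 went the other way, from 0.19 ± 0.22 to -1.09 ± 0.12, a 2.43-fold fall. The follistatin-like gene FSTL3, outside the rule for naming genes, differed by 1.08, a call lost under most omissions of 1 culture.

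EMT transcription factors did not move as a group. Of 10 tested, 2 were called higher and 0 lower, and the median was 0.14. Besides SNAI1, its relative SNAI2 (Slug) rose from -1.23, -0.92 and -0.60 to -0.03, 0.23 and 0.24, by 2.09-fold, and the call was lost without the first or the second replicates or the first control. TCF4 and TCF3, which encode E-proteins, rose by 0.46 and 0.33 and TWIST1 fell by 0.68, all with limma adjusted p below 0.05 but under 2-fold. ZEB1 and ZEB2, repressors of epithelial genes, differed by -0.01 and 0.06, and the sign of either changed with the scaling or the choice of probes. FOXC2, at 0.18, and TWIST2, at -0.17, did not pass.

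Epithelial genes were split. Of 19 tested, 1 was called higher and 3 lower, 2 rose and 6 fell by adjusted p, and the median was -0.33, with CDH1 described above among the falls. CLDN1, a tight junction claudin, fell from 1.17, 1.27 and 0.91 to 0.06, -0.14 and -0.13. The groups did not overlap (log2 -1.19, SE 0.13, 2.28-fold, limma adjusted p = 0.00024). ELF3, an epithelial ETS factor outside the rule for naming, fell by 1.01. Its call was lost without the second or the third replicates and when any of 4 of the 6 cultures was left out. It was also lost under several other settings, among them scaling to the array median (-0.91) and no scaling (-0.87). CLDN4, another claudin, rose instead, from the floor in all 3 controls to -2.59, -2.40 and -2.71, at least 2.81-fold, and DSP, encoding desmoplakin of desmosomes, rose by 0.89 without reaching 2-fold.

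Several mesenchymal and matrix genes rose, mostly by less than 2-fold. Of 18 mesenchymal genes 2 were called higher and 0 lower, 7 rose by adjusted p, and the median was 0.52. FAP, the serine protease of activated fibroblasts, stood at 1.54, 1.46 and 1.61 in the controls and at 3.47, 3.39 and 3.51 with TGFβ. The spread within either group was small against the 3.78-fold rise (log2 1.92, SE 0.13). CDH2 (N-cadherin), LOX (lysyl oxidase) and ITGAV (integrin αV) rose by 0.93, 0.97 and 0.84, and LOXL4, another lysyl oxidase outside the rule for naming, by 1.01, a call lost without the first or the third replicates. VIM, encoding the intermediate filament vimentin and also named outside that rule, stood at 8.79 ± 0.21 in the controls and 8.45 ± 0.02 with TGFβ (SD, n = 3) and did not pass.

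Of 19 collagen and matrix genes 2 were called higher and 0 lower, 8 rose and 1 fell by adjusted p, and the median was 0.49. COL4A1, a chain of basement membrane collagen IV, rose from 3.80 ± 0.24 to 5.26 ± 0.05 (SD, n = 3; 2.74-fold), and its partner COL4A2 by 0.73. TNFAIP6, a hyaluronan-binding protein, rose by 1.46, a call lost without the first or the second replicates, while COL8A1 fell by 0.48. Among 20 actin cytoskeleton genes ABLIM3 was the only call, 6 rose and 1 fell by adjusted p, and the median was 0.18. PALLD (palladin) rose by 0.89 and TPM1 (tropomyosin) by 0.75, and MYLK, the myosin light chain kinase, fell by 0.52.

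Genes of extracellular proteolysis went both ways, with 4 of 16 called higher and 1 lower and a median of 0.17. ADAM19, a membrane metalloprotease, stood at 0.29, 0.32 and 0.45 in the controls and at 2.93, 3.04 and 3.08 with TGFβ. The 6.33-fold rise (log2 2.66, SE 0.21, limma adjusted p = 3.5e-05) was the largest of the list. MMP10, stromelysin 2, was not well above background in any control and rose at least 4.84-fold. SERPINE2, an inhibitor of thrombin and plasminogen activators, rose by 1.23, and MMP1, interstitial collagenase, by 1.61 from a spot near the array edge, the latter named outside the rule. PLAU, encoding urokinase, fell from 5.33 ± 0.12 to 4.19 ± 0.03 (SD, n = 3; 2.20-fold), and lost its call without the second replicates.

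Secreted growth factors went both ways. Of 20 cytokines and growth factors 1 was called higher and 2 lower, 6 rose and 6 fell by adjusted p, and the median of -0.13 changed sign with the processing. PDGFA, a ligand of PDGF receptors, rose from 0.19, -0.11 and 0.03 to 1.84, 2.04 and 2.08. The groups were 3.86-fold apart (log2 1.95, SE 0.10), and its other probe gave 1.68. EREG and AREG, which encode the EGF receptor ligands epiregulin and amphiregulin, fell by 1.55 and 1.32 on the log2 scale. EREG stood at -0.70, -0.34 and -0.10 in the controls and at -1.95, -1.84 and -2.0 with TGFβ, without overlap. For AREG, on a spot near the edge, the other probe differed by 0.45 in the opposite direction, so its direction is uncertain. CCL2, a monocyte chemokine, fell by 0.62 (limma adjusted p = 0.00336).

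Of 14 AP-1 and immediate early genes 4 were called higher and 0 lower, and the median was 0.25. FOSB, a Fos-family subunit of AP-1, rose from -4.13, -3.77 and -3.75 to -2.38, -2.11 and -2.0, by 3.30-fold. ATF3, a stress-induced bZIP factor, rose by 1.41 on the probe used, but its other probes differed by -0.13 and 0.05, and the call was lost without the first or the second replicates. KLF4, a zinc-finger factor, rose by 1.08 and EGR2, an early growth response factor, at least 2.09-fold, and both calls depended on single cultures, that of EGR2 on the third TGFβ culture and that of KLF4 on the first control or the second TGFβ culture.

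Of 10 Notch genes 2 were called higher and 0 lower, and the median was 0.11. JAG1, a Notch ligand, stood at -0.07, 0.60 and 0.47 in the controls and at 2.98, 3.1 and 3.11 with TGFβ. It rose by 6.63-fold (log2 2.73, SE 0.23, limma adjusted p = 5.4e-05). HEY1, a repressor induced by Notch signalling, rose by 3.40-fold, from -3.79 ± 0.09 to -2.03 ± 0.14 (SD, n = 3), and LFNG, a glycosyltransferase acting on Notch, by 0.45 on one probe and 0.04 on another. NF-κB responsive genes gave 0 of 13 called higher and 1 called lower, with 1 rise and 4 falls by adjusted p and a median of -0.03 whose sign changed with the processing. TRAF1, an adaptor of TNF receptors, was the call, at -1.12 from levels close to the floor, and it was lost when any of 4 of the 6 cultures was left out and with the replicate number as a block. TNFAIP2 and CD83 fell by 0.63 and 0.44, and BCL3, a nuclear IκB protein, rose by 0.92.

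Among hepatocyte transcription factors the only call was a fall, that of ONECUT1. Of 11 tested, 0 were called higher and 1 lower, 1 rose and 4 fell by adjusted p, and the median was -0.28. This gene, which encodes HNF6, stood at 0.21, -0.57 and -0.17 in the controls and at -1.84, -1.65 and -1.87 with TGFβ. The controls were more spread than the treated cultures, and the fall was 3.05-fold (log2 -1.61, SE 0.18, limma adjusted p = 0.00032). It was no longer called with normexp background correction (-0.87) or by the methods' t-test. FOXA2 fell by 0.80 and NR5A2, a nuclear receptor of bile acid synthesis, rose by 0.81, both short of the call.

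Of 16 PAR bZIP and clock genes HLF was the only call, 1 rose and 2 fell by adjusted p, and the median was 0.01. DBP and TEF, the other PAR bZIP factors, differed by -0.43 and 0.20 and did not pass, with DBP at -1.58 ± 0.16 in the controls and -2.01 ± 0.14 with TGFβ (SD, n = 3). BMAL1, the activator of the core clock, rose by 0.73 (limma adjusted p = 0.00215) and PER3, a repressor of the clock, fell by 0.32 (adjusted p = 0.0442). PER2, CRY2, CIART, NR1D2, RORA and BHLHE41 differed by 0.21, 0.20, 0.20, 0.39, -0.23 and 0.11 and did not pass.

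Of 11 secreted hepatocyte proteins 0 were called, 1 rose and 2 fell by adjusted p, and the median was -0.13 with a sign that depended on the processing. RBP4, the retinol carrier, fell by 0.74 and the ferroxidase CP by 0.83, the latter to the floor, while APOH, an apolipoprotein on a spot near the edge, rose by 0.73. Among 10 ABC and bile acid transporters 1 was called higher and 1 lower, with a median of -0.16. Beside the drop of ABCC2, ABCA1, the cholesterol exporter, rose from 0.40, 0.73 and 0.55 to 2.04, 2.06 and 2.07, by 2.81-fold, a call lost without the third replicates. ABCB4, the phospholipid floppase of the canalicular membrane, fell by 0.91 and the organic anion transporter SLCO4A1 by 0.57, under 2-fold.

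Of 9 liver metabolism genes 2 were called higher and 2 lower, and the median of -0.12 also depended on the processing. BDH1, which interconverts ketone bodies, rose from -3.93 ± 0.21 to -2.16 ± 0.02 (SD, n = 3; 3.42-fold), with 1 of the 3 control spots well above background. UGT1A6, a glucuronosyltransferase, rose by 1.04, and its call was lost without any 1 replicate number. CYP1B1, a cytochrome P450 of estrogen and xenobiotic metabolism, fell from 4.51 ± 0.09 to 3.34 ± 0.15 (2.25-fold) on a spot near the array edge, and with probes away from it CYP1B1 differed by -0.93 and was not called. BAAT, which conjugates bile acids to glycine or taurine, fell to the floor on all TGFβ arrays, at least 2.14-fold, a call lost without any 1 of the 6 cultures and with the replicate number as a block.

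Proliferation genes hardly changed at 16 h. Of 26 cell cycle genes 0 were called, 2 rose by adjusted p, and the median was 0.02 with no stable sign. Those 2 were the cyclins E, CCNE1 by 0.42 and CCNE2 by 0.48, whose partner CDK2 drives entry into S phase. Of 9 genes of CDK inhibitors and MYC 0 passed either threshold, with MYC at 4.18 ± 0.13 in the controls and 3.85 ± 0.05 with TGFβ (SD, n = 3, limma adjusted p = 0.0834) and the CDK inhibitor CDKN2D differing by 0.27. Of 18 stress response genes 0 were called, 3 rose and 1 fell by adjusted p, with HSPA5, the chaperone BiP of the endoplasmic reticulum, at 0.43, the heat shock cochaperone DNAJB1 at 0.47, CHAC1 at 0.59 and the vasodilator peptide ADM at -0.66. The medians of the last 2 lists, -0.06 and -0.08, had no stable sign. Of 11 leukocyte and endothelial markers 4 were measurable, PTPRC, CD14, VWF and CDH5, of which 0 passed and for which the median was -0.18, while CD3E and PECAM1 did not pass the filter on dim probes.

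**Figure D3:**
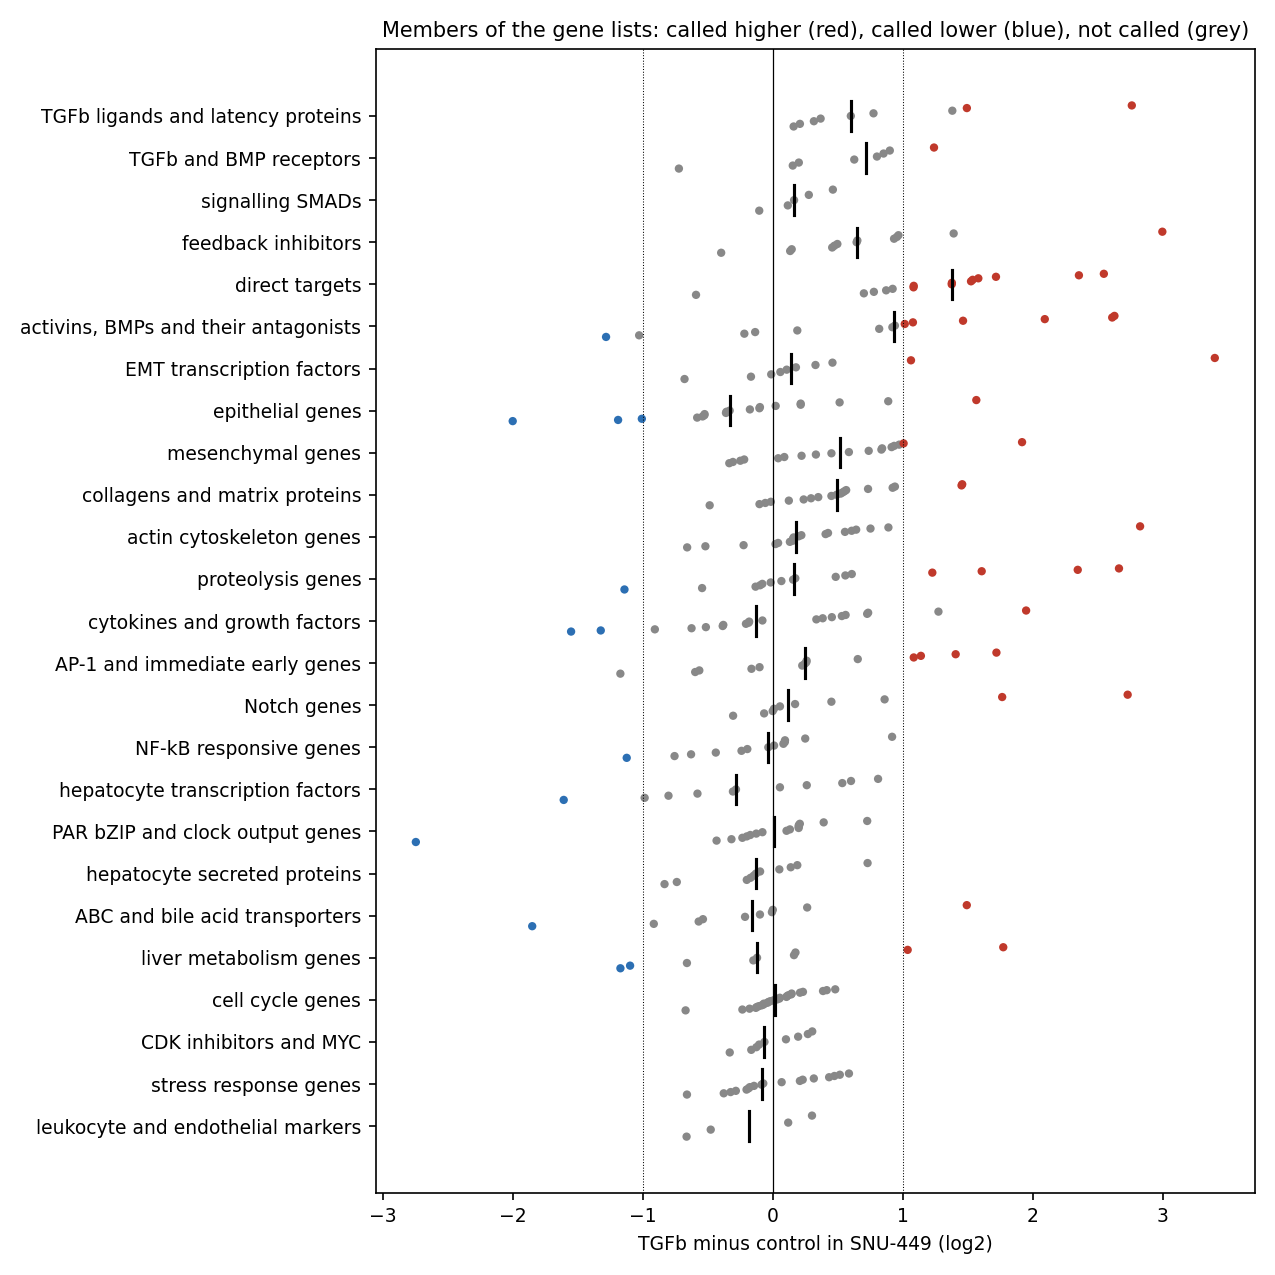
Difference of log2 level (TGFβ minus control in SNU-449, horizontal axis) for every tested member of the 25 gene lists, 1 row a list, with members called higher in red, called lower in blue and the others in grey, list medians as black bars and a 2-fold difference as dotted lines. The direct targets, with a median of 1.38, lie farthest to the right, and the cell cycle genes, with a median of 0.02, hold no called member.

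Outside these lists, the largest rises included genes of signalling and transcription. CLEC18B, a C-type lectin gene, gave the largest, from -1.84, -1.48 and -2.41 to 2.02, 1.79 and 1.65 (13.3-fold), but its paralog CLEC18C on its own probe differed by 0.79, and near-identical copies can share signal. RASGRP3, an exchange factor for Ras, rose from -4.09, -3.82 and -3.62 to -0.59, -0.69 and -0.42, by 9.67-fold (limma adjusted p = 2.3e-06). ALOX5AP, the 5-lipoxygenase-activating protein of leukotriene synthesis, rose from -3.94, -3.96 and -4.06 to -0.86, -0.82 and -0.93, by 8.71-fold (adjusted p = 2.3e-06). In each of these genes the 3 TGFβ cultures lay together and well above the controls, which for RASGRP3 and ALOX5AP were close to the floor.

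MDFI, an inhibitor of MyoD-family factors, rose by 3.1, LMO1, a LIM-only transcriptional cofactor, by 2.95, SPOCK1, a testican proteoglycan, by 2.92 and LEFTY2, a secreted antagonist of Nodal, by 3.04. For LEFTY2 the second probe gave 3.05 and the paralog LEFTY1 2.38, so signal shared between the 2 genes cannot be told apart. FLJ16779, of unknown function, was not well above background in any control and rose at least 7.03-fold. KRTAP10-10, a keratin-associated protein gene, and the uncharacterised LOC729080 rose by 3.16 and 3.11 on spots near the edge. The other probe of KRTAP10-10 gave 0.57, and LOC729080 lost its call without the first replicates. AKAP8, a nuclear A-kinase anchoring protein, rose by 2.64, also on a spot near the edge. Spots in the outer 10 rows or columns made up 17.4% of tested genes and 20.0% of the calls. Among the genes described above, IL11, ID3, INHBA, HMOX1, SMAD7, TGFBR2, ITGAV, EGR2, CCL2 and FLJ16779 have such spots too, and the part of this position in their differences was not tested. With probes away from the edge PDGFA differed by 1.68 and PALLD by 0.91, beside 1.95 and 0.89 with the spots used here.

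Among further falls, SLC16A5, of the monocarboxylate transporter family, stood at 0.92, 1.24 and 1.13 in the controls and at -1.21, -1.13 and -1.03 with TGFβ. The groups were 4.67-fold apart (log2 -2.22, SE 0.12), with the lowest limma adjusted p among the falls named here, 3.4e-06. ITGA10, a collagen-binding integrin subunit, fell by 1.95, and MSMP and SMIM5 by 1.93 each. RAB32, a small GTPase, had a nominal fall of 2.74, but its TGFβ cultures stood at -0.57, -3.02 and -2.68 and the call was lost under 7 of 9 omissions. TNFSF10, encoding the death ligand TRAIL, differed by -2.12 with controls at -2.63, -2.08 and -0.42, and its call was lost without any 1 replicate number. IGFN1 and RIPOR3 differed by -2.17 and -2.64, and their calls were lost without the second replicates. Of 1809 long noncoding RNAs with a LNCipedia name, 11 were called higher and 11 lower, 0.608% each way. The leading ones were lnc-TRA2A-1 (2.75, near the edge) and lnc-AMIGO2-2 (at least 4.73-fold higher), against lnc-PRPF18-2 (-2.16) and lnc-NSA2-1 (-1.73). The call of lnc-PRPF18-2 was lost without the second or the third replicates. LINC00173, a noncoding RNA named through RefSeq, differed by -1.91, with another probe at 0.01, and lost its call without the second or the third replicates.

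TGFβ1 given together with galunisertib, compared with galunisertib alone, moved fewer genes, and these 6 arrays are not among those compared above. There, 113 genes were called (0.702%), 81 higher (0.503%) and 32 lower (0.199%), or 79 and 53 when scaled to the array median. The 233 genes called higher with TGFβ alone had a median difference of 0.21 under galunisertib, against -0.05 over all genes, and 22 of them were called higher, which is 22 of the 81. Of these 22, 12 had spots away from the array edge, and in this comparison 1.89% of genes near the edge were called against 0.451% away from it. The 142 genes called lower had a median of -0.42, and 6 of them were called lower, out of 32.

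The change of the TGFβ difference under galunisertib was tested as an interaction over the 12 SNU-449 arrays. It was called for 219 genes (1.36%), 151 with a lower (0.938%) and 68 with a higher (0.422%) TGFβ difference when the inhibitor was present, against 177 and 32 when scaled to the array median and 91 and 15 with normexp. The difference of SNAI1 went from 3.40 to 0.14 (change -3.26, limma adjusted p = 9.3e-06), that of ABLIM3 from 2.83 to -0.10 (change -2.93, adjusted p = 0.00035) and that of JAG1 from 2.73 to -0.42 (change -3.15, adjusted p = 0.00068). HLF went from -2.74 to -0.59 and ABCC2 from -1.85 to -0.48, with changes of 2.16 and 1.37 (adjusted p = 0.0021 and 0.00157). For CDH1 the difference went from -2.0 to -1.0, and the change of 1.0 was not called (adjusted p = 0.189). IL11 and PMEPA1 had differences of 4.05 and 2.77 under galunisertib, from levels that the inhibitor alone had shifted by -5.04 and -3.50.

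Galunisertib alone can be set beside TGFβ alone, although both comparisons use the same control arrays, so that the values are only listed. Its difference from control was 1.26 for HLF, 0.98 for ABCC2 and 1.82 for CDH1, whose TGFβ differences were -2.74, -1.85 and -2.0. It was -1.18 for ADAM19 and -2.30 for GDF6, whose TGFβ differences were 2.66 and 2.61. For SNAI1, ABLIM3 and RASGRP3 it was -0.40, -0.11 and 0.19, against TGFβ differences of 3.40, 2.83 and 3.27.

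In PLC/PRF/5, TGFβ1 at the same dose and time called 127 genes (0.789%), 93 higher (0.578%) and 34 lower (0.211%), counted among the 16101 genes measurable in some SNU-449 group, so that genes measurable in PLC/PRF/5 alone are left out. Of the 233 genes called higher in SNU-449, 27 were called higher in PLC/PRF/5 (of 93), 2 were called lower, and 65 were not well above background there, with a median of 0.09 against -0.02 over all genes. Of the 142 called lower, 6 were called lower in PLC/PRF/5 (of 34), 1 was called higher and 40 were not well above background. SERPINE2, HEY1 and PDGFA rose in both lines. Their differences were 1.42, 1.23 and 1.08 in PLC/PRF/5, beside 1.23, 1.76 and 1.95 in SNU-449.

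The difference between the TGFβ responses of the lines was fitted over all arrays of both, those with galunisertib included. It was called for 365 genes (2.27%), 171 with a higher value (1.06%) in SNU-449 and 194 with a lower one (1.2%). The split was 184 and 138 when scaled to the array median and 117 and 72 with normexp. SNAI1 led, since its TGFβ difference of 3.40 in SNU-449 stood against -0.57 in the other line, a gap of 3.97 (limma adjusted p = 8.7e-13). ID1 and ID3 went in opposite directions, with rises of 1.72 and 1.08 for SNU-449 against -1.0 and -1.54 for PLC/PRF/5, and differences between the lines of 2.72 and 2.62 (adjusted p = 1.3e-08 and 1.1e-07). CCN2 showed 1.53 and -0.82, with a difference of 2.34. HLF fell by 2.74 here and by 0.70 in PLC/PRF/5 (difference -2.04, adjusted p = 2.6e-06), ABCC2 by 1.85 and by 0.69 (difference -1.15, adjusted p = 6.6e-06), and ONECUT1 showed -1.61 and 0.27. FAP, INHBA, LRRC32 and GDF6 were not well above background on any control or TGFβ array of PLC/PRF/5, so that the difference between the lines rests on their change in SNU-449.

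**Figure D4:**
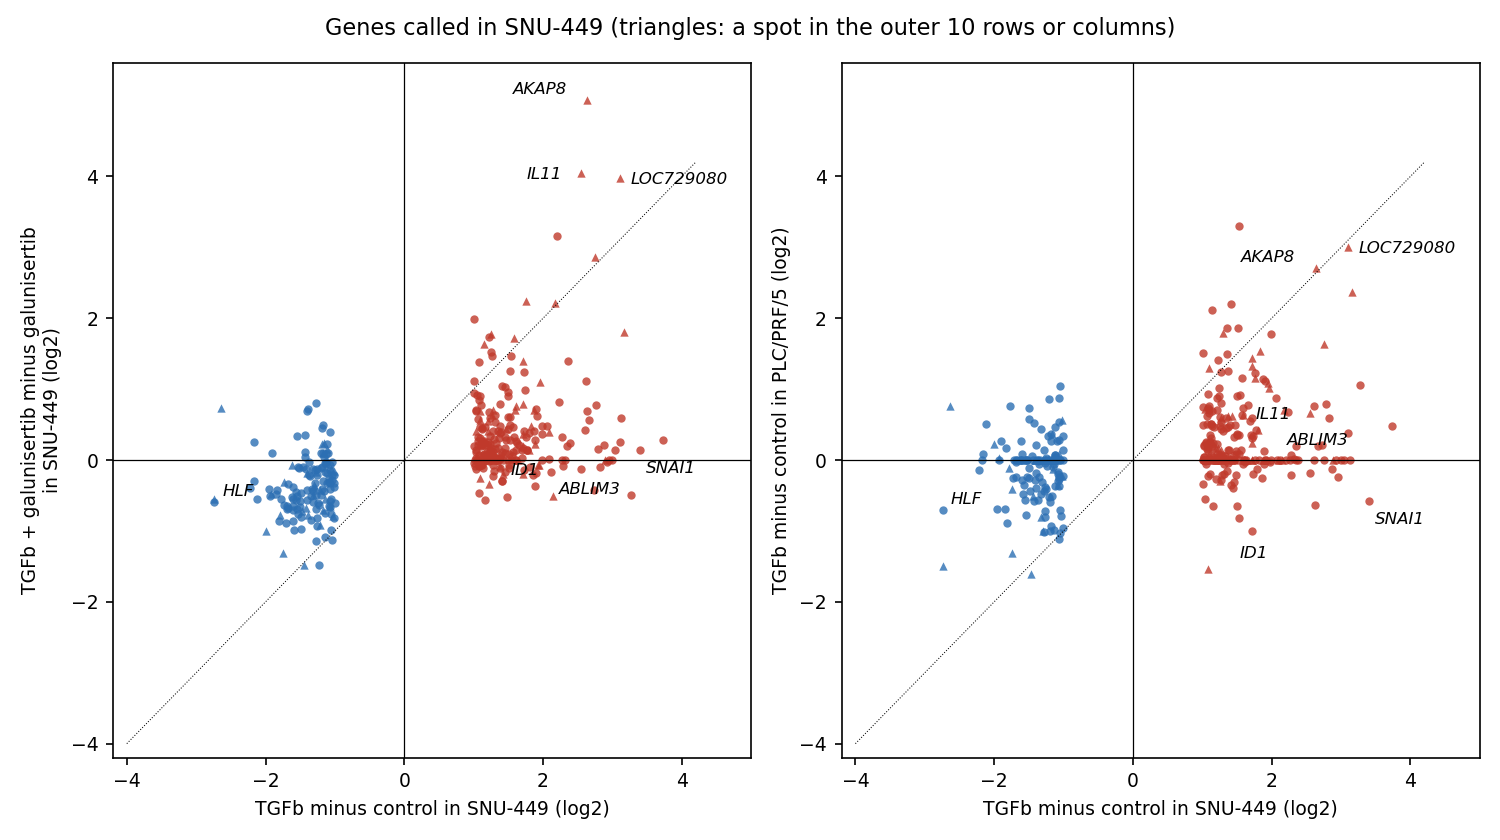
Difference of log2 level on adding TGFβ to galunisertib in SNU-449 (left, vertical axis) and on adding TGFβ to PLC/PRF/5 (right, vertical axis) against the TGFβ minus control difference in SNU-449 (horizontal axis) for the 233 genes called higher (red) and 142 called lower (blue), with triangles for spots in the outer 10 rows or columns and equal differences as a dotted diagonal. Most points lie nearer to 0 than the diagonal in both panels, SNAI1 and ABLIM3 among them, and points at exactly 0 in the right panel are at the floor in both PLC/PRF/5 groups.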

How the data were processed

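RNA of 24 cultures was hybridised to one-colour Agilent arrays, 8 on each of 3 slides scanned on 1 day, and groups and replicate numbers were taken from the labels. The authors deposited, per array, the output of Feature Extraction 10.7.3.1 (version from the submitters' processing notes), whose processed signal is a linear intensity after background subtraction, not normalized between arrays. A second table deposited by the authors gives normalized log2 values. On 19267 probes its differences between arrays followed the intensities scaled to the 75th percentile with a slope of 1.00 across probes, with every probe centred to a median of 0, and it served as an alternative only.

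Here control and outlier spots were left out, spots of a probe were averaged, each intensity was divided by the array's 75th percentile, values under 5.70% of it (a log2 of -4.13) were raised to that floor, and log2 was taken. Probes were tested when all arrays of some SNU-449 group were well above background, also for comparisons with PLC/PRF/5, and the brightest probe stood for a gene. Of 58201 probes, 31104 were named through RefSeq, 10719 by the LNCipedia name in the files and 16378 had no name. Differences within SNU-449 came from limma (version 3.58.1, R 4.3.3) over its 12 arrays, so all 4 groups share 1 estimate of the spread. Differences between the lines, and those within PLC/PRF/5, came from a fit over all 24 arrays of both lines. The study's methods name a two-sample t-test with a random variance model and P below 0.05, and its figure legends a fold above 2 with P below 0.001. The legends of its supplementary galunisertib lists give the same fold with a less strict P. The thresholds of the figure legends were kept, and the t-test without that variance model (the methods' t-test in the text) was an alternative. The SNU-449 fit was tested on simulated data with independent noise and with no slide, floor or edge effect. With 3 arrays a group precision is limited. The limma P-values rest on the spread between independent cultures within groups, pooled over all groups of a fit and shared in part between genes. Without the replicate number as a block, that spread also holds differences between slides.

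Genes at or near background on all arrays of a group got an at-least fold, taken against the weakest signal called well above background or the floor, whichever was higher. Named genes are SNAI1, ABLIM3, HLF, ABCC2 and CDH1, the 12 largest rises and falls by RefSeq name and the 2 largest by LNCipedia name among called genes well above background in the higher group and not overlapping, at most 4 called or adjusted-significant members per list, any member of the lists of feedback inhibitors, direct targets, EMT factors and PAR bZIP factors, and the 5 largest differences each way between lines and with galunisertib. TGFB1, FSTL3, ELF3, LOXL4, VIM and MMP1 were named after their values were seen, as were the genes given only as measurable or not. Some genes that the rule names are not reported here. The genes, the 25 lists and the tests were chosen with earlier results of these data known. The replicate number is also the slide. Deviations from the group means of control and TGFβ arrays with the same number correlated at 0.13 to 0.18 in all 3 pairs, so these arrays count as paired. Between galunisertib arrays and those with TGFβ and galunisertib the same correlation ranged from -0.06 to 0.12. P-values in the text come from fits without the number as a block unless the block is named, and a fit with it was an alternative. Other alternatives changed the scaling, the background correction, the floor, the filter on dim probes, the choice of probe, the spots near the edge, the arrays in the fit and single replicates.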

Additional observations from a re-analysis of the deposited data

Results flagged for a closer look

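The TGFβ difference was compared with that in PLC/PRF/5 and with that under galunisertib by a test of the difference itself in limma, and the genes named here are the 5 with the largest differences each way. Between the lines, 365 genes differed. The largest excesses of the SNU-449 difference over that of PLC/PRF/5 were those of SNAI1 (3.97), CLEC18B (3.26), NOG (3.26), LMO1 (3.19) and ALOX5AP (3.12). NOG stood at -3.50 ± 0.19 in PLC/PRF/5 controls and at the floor on all 3 TGFβ arrays of that line, and ALOX5AP was not well above background there. In the opposite direction lay RIPOR3 (-3.41), TRIM67 (-3.18), an RNA with a LNCipedia name (-2.94, a rise of 3.55 in PLC/PRF/5 against 0.61), SPP1 (-2.77) and TNFSF10 (-2.63). For SPP1, encoding the secreted phosphoprotein osteopontin, a difference of -0.44 in SNU-449 stood against 2.33 in the other line, on a spot near the edge, and for TRIM67 -1.42 stood against 1.76.

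Under galunisertib, 219 genes differed in their response to added TGFβ. The largest losses of the TGFβ difference were those of RASGRP3 (-3.76), CLEC18B (-3.45), SNAI1 (-3.26), JAG1 (-3.15) and LDLRAD4 (-3.0). The largest changes upwards were those of RIPOR3 (3.37), RPS16P5 (2.92), AKAP8 (2.43), lnc-PRPF18-2 (2.42) and lnc-APPL2-1 (2.41). The spots of RIPOR3, RPS16P5 and AKAP8 lie near the array edge, and the part of this position was not tested. AKAP8 was higher with TGFβ in all 3 settings, by 2.64 alone in SNU-449, by 5.07 on top of galunisertib and by 2.70 in PLC/PRF/5. In each setting the arrays with TGFβ lay in the second row of the slide and those without it in the first. Position and treatment therefore cannot be told apart in any of them.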

How the results depend on the processing

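Against 375 genes called for TGFβ alone, normexp background correction called 220, and for the difference between the lines 189 against 365. For TGFβ added to galunisertib, 71 genes were called with probes well above background on all arrays and 61 without spots in the outer rows or columns, against 113, and for the interaction 106 with normexp against 219. Scaling to the array median changed the split of the difference between the lines from 171 higher and 194 lower to 184 and 138, and of the interaction from 68 and 151 to 32 and 177. Leaving out 1 replicate number left 279 to 311 genes for TGFβ alone, 289 to 326 between the lines, 96 to 125 under galunisertib and 141 to 169 for the interaction. Leaving out 1 control or TGFβ array of SNU-449, alternatives chosen after seeing the data, left 309 to 360 genes for TGFβ alone, 352 to 387 between the lines and 169 to 207 for the interaction. ZEB1, at -0.01, turned to 0.086 when scaled to the array median, 0.12 without scaling, 0.25 with normexp, 0.011 in the authors' values, and ranged from -0.070 to 0.072 when single replicates or arrays were left out. ZEB2, at 0.06, turned to -0.24 with the mean of all probes and ranged from -0.018 to 0.13 on such omissions. The cause was not tested. With the replicate number as a block, 353 genes were called for TGFβ alone, 344 of them shared, and among the genes in the text BAAT and TRAF1 lost their calls and RPS16P5 gained one. Normexp ended the calls of AREG, BAAT, BDH1, BMP4, CDH1, CLDN1, CLDN4, EGR2, ELF3, EREG, FOSB, FST, FSTL3, HEY1, ID3, JUNB, KLF4, MMP1, MMP10, ONECUT1, PLAU, PTHLH, SNAI2, TNFSF10, TRAF1 and lnc-AMIGO2-2. The authors' normalized values ended those of AKAP8, CLDN4, EGR2, ELF3, FOSB, FST, HEY1, LOC729080, MMP10, RAB32, SPOCK1, TNFSF10 and lnc-AMIGO2-2. The methods' t-test at the same thresholds called 260 genes, or 365 with a Benjamini-Hochberg adjusted p below 0.05, and missed among others EREG, LDLRAD4 and ONECUT1. All these genes kept the direction of their difference. Of 77 called genes in the text, 50 were called under every omission. Signals near background limit the genes at the floor, whose folds are lower bounds.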
